A study of Mus musculus with 143 samples.

Results

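The transcriptomes of untreated MC38 and CT26 tumours, both murine colon carcinoma lines grown under the skin of mice, were compared. The comparison rests on 6 of the 143 libraries of the series, the 3 baseline MC38 tumours and the 3 baseline CT26 tumours, chosen by their sample titles, and all 6 lie in the same block of sample numbers. MC38 tumours were labelled as high responders to the anti-PD-1 antibody of the study, muDX400, and CT26 tumours as partial responders; all 6 tumours were untreated. The lines were implanted in the right lower flank, the day of excision of baseline tumours is not stated in the labels, and no engineered allele is named in the labels. The hosts differ in strain. MC38 is generally grown in C57BL/6 mice and CT26 in BALB/c mice, which is background knowledge rather than a label, so tumour line and host strain cannot be told apart in these 6 libraries. The isotype tumours of both models served as a further, separate comparison: 5 MC38 and 5 CT26 tumours given a mouse IgG1 antibody on days 11 and 15 and excised on day 19. The 27 baseline tumours of the other 9 models gave levels against which single genes were placed.

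Both lines arose from colon tumours of mice treated with a carcinogen and are widely used to study T cell responses to tumours. In such tumours, cytotoxic T and natural killer cells release granzymes, perforin and interferon-gamma, interferons induce chemokines, antigen presentation and the PD-1 ligand Cd274, and myeloid cells, mast cells, fibroblasts and vessels make up much of the remaining host tissue. A bulk tumour library mixes RNA of the cancer cells with RNA of all of these, so that fewer cells of a type and less RNA per cell cannot be told apart in any value given here.

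Levels are FPKM, fragments per kilobase of transcript scaled to the mapped fragments, and every difference is MC38 minus CT26 on the log2(FPKM + 1) scale with its standard error (SE), which understates the change of low genes. Estimated depth was 19.9 to 24.1 M fragments per baseline library, and 12590 to 12818 genes reached 1 FPKM. Correlations over genes were 0.979 to 0.994 among MC38 tumours, 0.962 to 0.989 among CT26 tumours and 0.796 to 0.836 between the models. Host tissue varied within both models. Adipocyte genes summed to 199.7, 16.6 and 7.23 FPKM in MC38 tumours and to 24.1, 41.9 and 1324 FPKM in CT26 tumours, and skeletal muscle genes summed to 154, 74.3 and 3.79 FPKM in MC38 tumours and to 16.8, 8.35 and 63.9 FPKM in CT26 tumours. Among other tissues, 1 of 2 skin genes tested was higher, the keratin Krt14 (3.24), while Krt10 differed by -0.32 and was not called. Of 4 erythroid genes tested 3 were lower, among them the haemoglobin gene Hba-a1 (-1.27), and Hbb-bt differed by 0.00. Hba-a2 (-1.47) and Hbb-bs (-1.84) were called lower as well, but not without the third MC38 (-1.07 and -1.33), the first CT26 (-1.52 and -1.87) or the third CT26 tumour (-0.96 and -1.39), nor was Hba-a2 without the first (-1.71) or the second MC38 tumour (-1.63) or under either other scaling. The third CT26 tumour carried the most fat RNA and the third MC38 tumour the least muscle RNA, and the part of these tissues in the differences was not tested. Mitochondrial transcripts took 4.49%, 4.87% and 7.64% of FPKM in MC38 tumours and 3.89%, 3.79% and 3.86% in CT26 tumours, so the third MC38 library also stood apart in this respect.

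The colon label was weakly reflected in a list of colonic genes. Of 18 genes of colonic epithelium, 4 reached the level needed for testing, and 1 of these was higher and 2 lower in MC38 tumours. The list summed to 8.41 to 12.8 FPKM in MC38 tumours and to 15.0 to 19.6 FPKM in CT26 tumours. Cdx1, a transcription factor of intestinal identity, had 0.0832, 0.0287 and 0.0856 FPKM in MC38 tumours and 0 FPKM in all CT26 tumours. Its relative Cdx2 had 0.0215, 0 and 0 FPKM in MC38 tumours and 0.160, 0.149 and 0.143 FPKM in CT26 tumours. The defining markers were thus near or at 0 in both models. The factor Hnf4a and the goblet cell peptide Tff3 were listed at 0 in all 6 tumours, and the brush border protein Vil1 and the surface antigen Gpa33 were at most 0.0479 and 0.0972 FPKM in any of them. Lgals4, a galectin of gut epithelium, was the clearest remaining transcript of this list, with 0.767, 1.09 and 1.63 FPKM in MC38 tumours and 6.31, 6.12 and 7.97 FPKM in CT26 tumours, a difference of -1.86 (adjusted p = 1.46e-04, limma). Krt20, a keratin of differentiated gut epithelium that is not in this list, was higher than Lgals4 in CT26 tumours. It had 0.0252, 0 and 0 FPKM in MC38 tumours and 60.9, 48.7 and 66.6 FPKM in CT26 tumours. Krt20 separated the lines by -5.88 ± 0.15 (SE, adjusted p = 4.37e-07), and the epithelial genes Krt18 (-2.58) and Muc1 (-1.34) were also lower in MC38 tumours. The direction of Krt20 was fixed by the filter of at least 1 FPKM in 3 of 6 libraries, which it passed through CT26 tumours alone. Epcam, an epithelial adhesion molecule, was low in both, at 1.07, 0.860 and 0.955 FPKM in MC38 tumours and 0.101, 0.138 and 1.22 FPKM in CT26 tumours.

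The models differed over much of the measured transcriptome. Of 13350 genes tested, 6689 (50.1%) passed an adjusted p of 0.05, 3459 (25.9%) higher and 3230 (24.2%) lower in MC38 tumours, with a median difference of 0.02 over all genes. With a difference of at least 1 required as well, 2954 genes (22.1%) were called, 1452 higher (10.9%) and 1502 lower (11.3%). The 3 MC38 values lay wholly above or below the 3 CT26 values for 8291 genes (62.1%). About every other gene was therefore called, and each count of group members below is to be read against the 25.9% and 24.2% of all genes. A gene under 1 FPKM in every tumour of 1 model was tested only through the other model. The filter then fixed its direction, in these counts and for single genes.

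The transcripts highest in MC38 relative to CT26 tumours included secreted, membrane and matrix genes. Prl2c2 (ENSMUSG00000079092, chr13:12996125-13005383), a proliferin of the prolactin family, had 479, 481 and 258 FPKM in MC38 tumours and 1.96, 0.400 and 0.658 FPKM in CT26 tumours, a difference of 7.69 ± 0.34 (SE, adjusted p = 3.06e-06). Its near copy Prl2c3 differed by 6.87, and how fragments were divided between the copies is uncertain. Shisal2b, a gene with little described function, had 193, 178 and 183 FPKM in MC38 tumours and 0.203, 0 and 0 FPKM in CT26 tumours. Tex101, a surface glycoprotein best known from germ cells, had 108, 119.9 and 135 FPKM in MC38 tumours and 0.0486, 0 and 0 FPKM in CT26 tumours. Both were abundant in every MC38 tumour and at or near 0 in every CT26 tumour, with differences of 7.45 ± 0.13 for Shisal2b and 6.90 ± 0.13 for Tex101 (SE, adjusted p = 1.34e-07 and 1.47e-07). Id4, an inhibitor of basic helix-loop-helix factors, had 65.7, 63.0 and 90.5 FPKM in MC38 tumours and 0.0669, 0.0292 and 0.0600 FPKM in CT26 tumours. Mmp9, a gelatinase of matrix remodelling, had 219.6, 215 and 369 FPKM in MC38 tumours and 3.52, 2.81 and 3.69 FPKM in CT26 tumours. Neither gene overlapped between the models. Mmp9 differed by 5.91 ± 0.22 (SE, adjusted p = 1.49e-06). Also among the 12 highest were the protease inhibitor Serpine2 (5.85), the kinase Dclk1 (5.84), the anchoring-fibril collagen Col7a1 (5.74), the Ly49 receptor Klra4 (5.56) and the stromelysin Mmp10 (5.39). Klra4 belongs to a family of close, strain-variable copies, so its level is uncertain.

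The transcripts lowest in MC38 relative to CT26 tumours were led by Baiap2l1 (ENSMUSG00000038859), an adaptor of membrane and actin remodelling. It had 0.179, 0.232 and 0.0769 FPKM in MC38 tumours and 362, 306 and 299.8 FPKM in CT26 tumours, a difference of -8.12 ± 0.13 (SE, adjusted p = 1.34e-07). Msln, the surface protein mesothelin, had 0.184, 0.356 and 0.118 FPKM in MC38 tumours and 88.8, 85.5 and 77.4 FPKM in CT26 tumours. Ogn, a small leucine-rich proteoglycan of matrix, had 0.416, 0.234 and 0.0973 FPKM in MC38 tumours and 53.9, 100.5 and 80.1 FPKM in CT26 tumours. The 3 genes were nearly silent in MC38 tumours, and Msln differed by -6.12 and Ogn by -5.95. Also among the 12 lowest were Krt20, the mast cell tryptase Tpsab1 (-6.10) and the interferon-inducible genes Ifi202b (-6.64) and Gbp2b (-5.73). Eno1b, Rpl39l, Hmga1b, Rps3a2 and Tpm3-rs7 completed the 12, at -7.37 for Eno1b to -6.28 for Tpm3-rs7. Predicted gene models and symbols ending in -ps were left out of both sets of 12, among them H2-Ea-ps (-7.71), which is described with the class II genes. All 5 resemble another gene closely, as retrocopies or related copies do, so their levels depend on how shared fragments were assigned. Annotated pseudogenes were 3.66% of all genes tested, 10.3% of genes lower by at least 1 in MC38 tumours and 2.27% of those higher by at least 1.

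**Figure D1:**
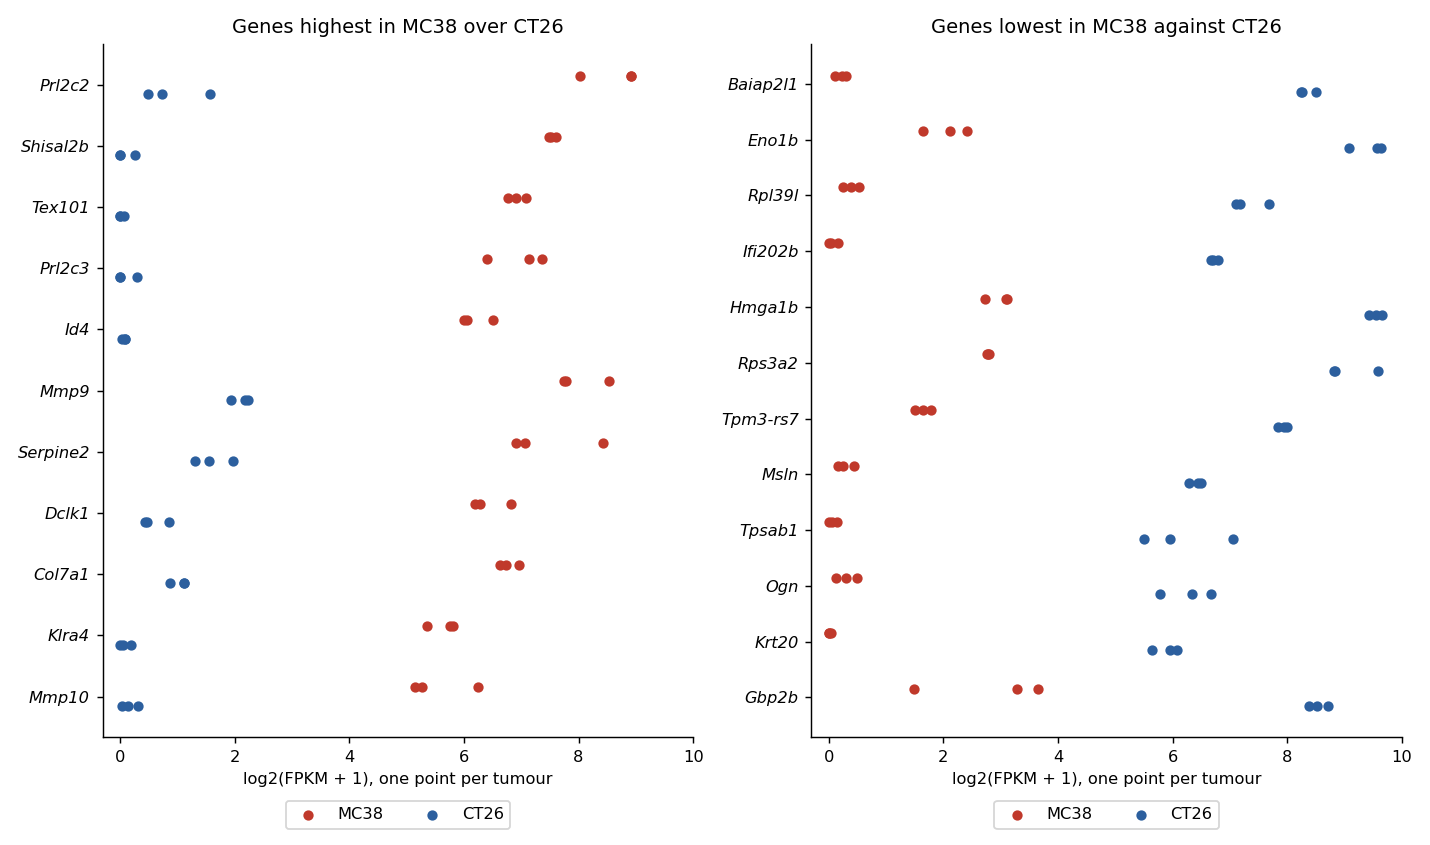
Genes among the 12 with the largest positive and the 12 with the largest negative MC38 minus CT26 difference at baseline outside predicted models and symbols ending in -ps, as log2(FPKM + 1) on the x axis, with 1 point per tumour. In all genes shown the 3 MC38 points and the 3 CT26 points do not overlap.

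T cell transcripts were lower in MC38 than in CT26 tumours at baseline. None of 14 pan-T-cell genes tested was higher in MC38 tumours and 13 were lower, with a median difference of -1.34. Of the 15 genes listed, 4 were under 1 FPKM in every MC38 tumour. Those of the 4 that were tested passed the filter through CT26 tumours alone, which fixed their direction. Trbc2, a constant segment of the T cell receptor beta chain, had 3.95, 5.46 and 1.5 FPKM in MC38 tumours and 15.4, 14.9 and 51.2 FPKM in CT26 tumours. Lck, the kinase that starts receptor signalling, had 3.27, 3.08 and 1.37 FPKM in MC38 tumours and 11.4, 11.5 and 14.9 FPKM in CT26 tumours. Every CT26 tumour exceeded every MC38 tumour in both genes, by -2.47 ± 0.52 for Trbc2 (SE, adjusted p = 0.00597) and -1.97 ± 0.25 for Lck (SE, adjusted p = 4.81e-04). Trbc1 differed by -1.74, and Cd3g, a chain of the CD3 complex, by -1.81 (adjusted p = 0.0356). The third MC38 tumour, with the highest mitochondrial share, was lowest and the third CT26 tumour highest in mean T cell level, and the part of RNA quality in this was not tested. Without the third MC38 tumour 8 of the 14 genes were called lower, without the third CT26 tumour 11, and without both 12. Cd3g was not called without the first (-1.99) or the third MC38 tumour (-1.26) or the first (-1.87) or the third CT26 tumour (-1.30), with a difference of -0.76 when the third tumour of both models was left out.

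Cd8a (chr6:71373427-71379173), the co-receptor chain of cytotoxic T cells, had 3.30, 3.67 and 0.642 FPKM in MC38 tumours and 10, 4.31 and 12 FPKM in CT26 tumours. The groups did not overlap, but the lowest CT26 tumour was close to the highest MC38 tumour. The difference of -1.51 ± 0.47 (SE, adjusted p = 0.0311) was not called without the third MC38 tumour (-1.03), the first CT26 tumour (-1.37) or the third CT26 tumour (-1.26), nor with genes of low level kept in the test, and was -0.77 without the third tumour of both models. Cytotoxic effector genes separated the models more firmly. Gzma (chr13:113093825-113100981), a granzyme of T and natural killer cells, had 4.81, 3.94 and 7.04 FPKM in MC38 tumours and 61.3, 59.8 and 71.6 FPKM in CT26 tumours. Prf1, the pore-forming perforin, had 2.85, 3.75 and 1.59 FPKM in MC38 tumours and 22.3, 15.4 and 18.4 FPKM in CT26 tumours. Gzmb had 10.7, 12.3 and 6.15 FPKM in MC38 tumours and 56.2, 48.6 and 60 FPKM in CT26 tumours. All 3 were several-fold lower in every MC38 tumour, by -3.41 ± 0.19 for Gzma (SE, adjusted p = 8.82e-06), -2.43 ± 0.25 for Prf1 (SE, adjusted p = 1.51e-04) and -2.42 for Gzmb. The granule protein Nkg7 differed by -2.17. In all, 10 of 17 CD8 and cytotoxicity genes were lower, none was higher and the median was -1.11. Of the 18 genes listed, 4 were under 1 FPKM in every MC38 tumour, so those of them that were tested could only be lower. The granzymes Gzmc, Gzmd, Gzme, Gzmf and Gzmg overlapped between the models. Leaving out 1 tumour gave 7 to 13 genes lower, and leaving out the third tumour of both models gave 8.

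Natural killer cell genes were mostly lower in MC38 tumours, with 7 of 10 lower and 1 higher. Of the 12 genes listed, 6 were under 1 FPKM in every MC38 tumour and 3 in every CT26 tumour. Those of the 6 that were tested passed the filter through CT26 tumours alone, which fixed their direction. Ncr1, the activating receptor that defines these cells, had 0.791, 0.685 and 0.614 FPKM in MC38 tumours and 7.52, 11.2 and 10.2 FPKM in CT26 tumours. Ncr1 was thus narrow within each model and far apart between them, at -2.64 ± 0.17 (SE, adjusted p = 1.67e-05). Ncr1 was among the genes whose direction the filter fixed. The lectin receptors Klrd1 and Klrk1 differed by -1.83 and -1.68, and the single higher gene was the strain-variable Klra4. Raet1e, a stress ligand of the Klrk1 receptor NKG2D, went the other way, with 11.0, 8.38 and 9.04 FPKM in MC38 tumours and 1.11, 0.585 and 0.761 FPKM in CT26 tumours. It differed by 2.53 ± 0.17, the one call among 4 ligands tested, although without the third CT26 tumour 2 other ligands were called lower. Among CD4 and regulatory T cell genes 1 of 6 was called (2 others were lower without the first MC38 tumour and 1 without the first CT26 tumour). This was Ikzf2, a transcription factor of regulatory T cells, higher by 1.22 at 1.94, 1.97 and 2.03 FPKM in MC38 tumours and 0.331, 0.309 and 0.199 FPKM in CT26 tumours. Ikzf2 was tested only through the MC38 tumours, which fixed its direction. Of 5 B and plasma cell genes 4 were lower, the immunoglobulin chains Ighm (-1.72) and Igkc (-1.57), the plasma cell receptor Tnfrsf17 (-1.08) and the B cell receptor inhibitor Cd22 (-0.50). Of the 13 genes listed, 11 were under 1 FPKM in every MC38 tumour. Those of the 11 that were tested could therefore only be lower, so the count is largely set by the filter. Without the second or the third CT26 tumour 2 of the 4 lower genes were called. Ighm was lost in both cases (-1.51 and -1.64), as was Cd22 (-0.51 and -0.44), which was also lost without the second (-0.44) or the third MC38 tumour (-0.42).

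The target of the antibody and its ligand were both lower in MC38 tumours. Pdcd1 (chr1:94038305-94052553), which encodes PD-1 on activated T cells, had 1.51, 1.92 and 0.155 FPKM in MC38 tumours and 6.25, 3.84 and 12.2 FPKM in CT26 tumours, a difference of -1.92 ± 0.45 (SE, adjusted p = 0.00929). Cd274 (chr19:29367455-29388095), which encodes the ligand PD-L1, had 12.6, 13.6 and 8.24 FPKM in MC38 tumours and 33.5, 34.6 and 20.8 FPKM in CT26 tumours, a difference of -1.29 ± 0.25 (SE, adjusted p = 0.00374). Neither gene overlapped between the models. Among 14 checkpoint genes 3 were higher and 5 lower. Tigit, an inhibitory receptor of T and natural killer cells, had 1.27, 1.58 and 0.706 FPKM in MC38 tumours and 12.1, 9.47 and 8.94 FPKM in CT26 tumours (-2.36 ± 0.20, SE, adjusted p = 5.89e-05). Cd276, a B7-family protein carried by many tumour cells, had 25.5, 28.2 and 32.2 FPKM in MC38 tumours and 5.29, 5.78 and 4.06 FPKM in CT26 tumours (2.30 ± 0.16). Tigit was low and Cd276 high in every MC38 tumour. The costimulatory ligand Cd80 (-2.03) and the PD-1 ligand Pdcd1lg2 (-0.84) were the other lower genes, and the receptor Cd244a (1.32) and the ectonucleotidase Nt5e (1.08) the other higher ones. Pdcd1lg2 was not called without the first or second MC38 or the first CT26 tumour (-0.69, -0.80 and -0.77). Lag3 and Ctla4, inhibitory receptors of T cells, differed by 0.01 and -0.47 and were not called. The mean of 18 genes forming the mouse counterpart of a T-cell-inflamed signature was 4.34, 4.47 and 3.82 in MC38 tumours and 4.57, 4.57 and 5.07 in CT26 tumours on the log2 scale. Of its genes 7 were lower and 2 higher, the chemokine Ccl5 (0.90) and Cd276, but with the third tumour of both models left out 6 were lower and 5 higher. The groups overlapped for Ccl5, which kept its call in 1 of 6 leave-outs, that of the third CT26 tumour (1.29), and ran from 0.66 to 0.97 in the other 5.

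**Figure D2:**
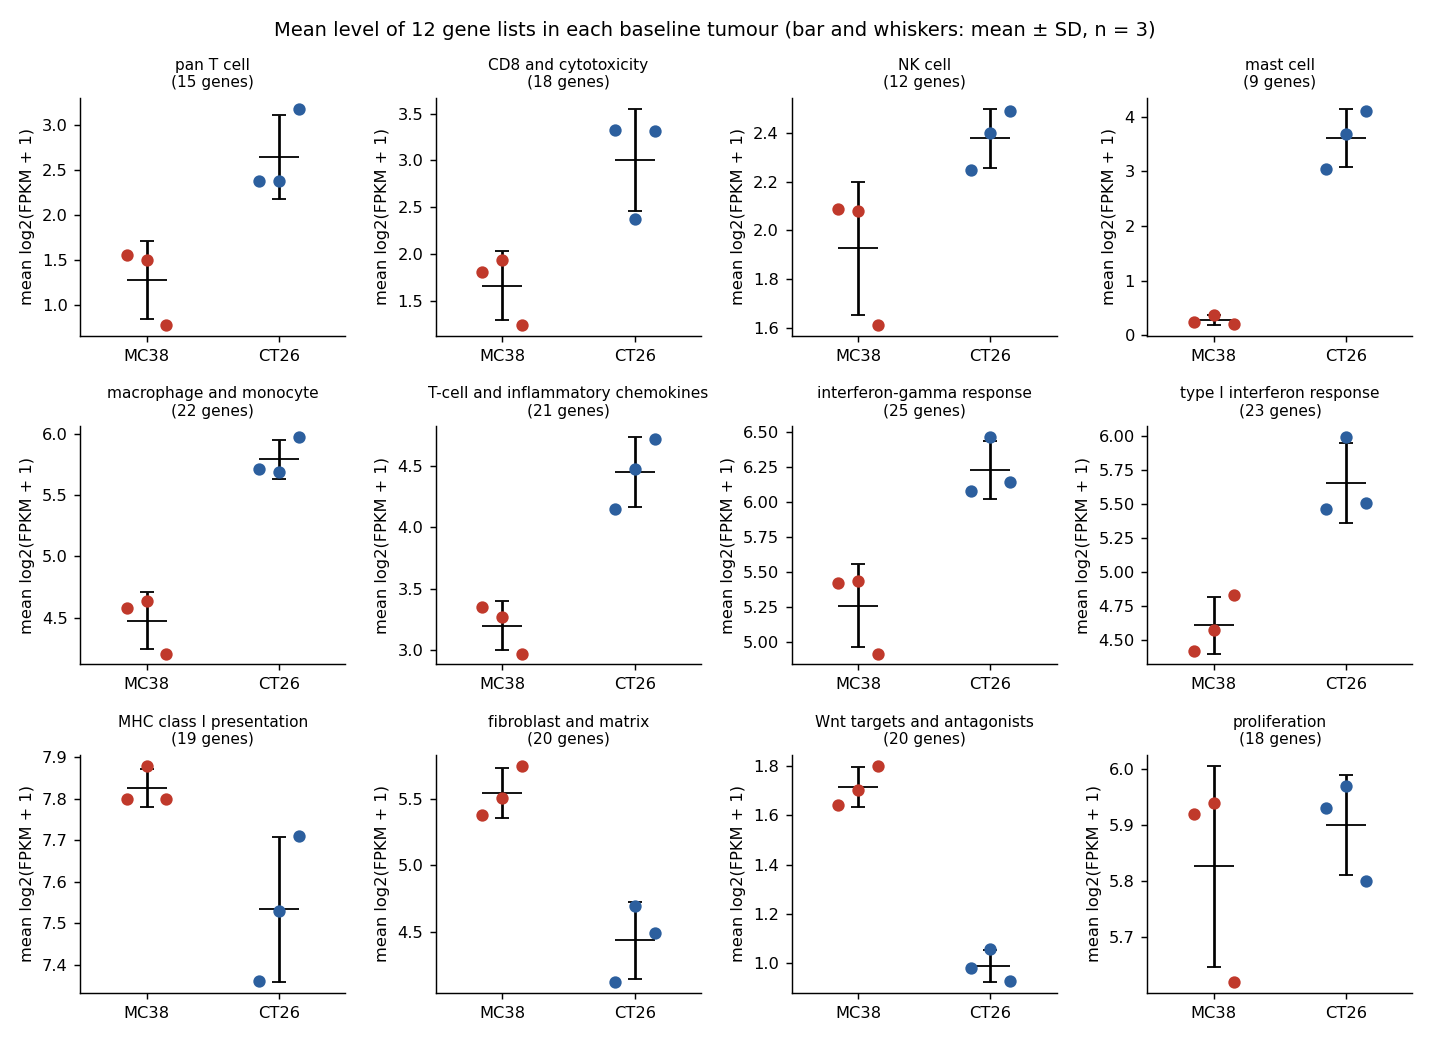
Mean log2(FPKM + 1) of 12 gene lists in each baseline tumour, MC38 left and CT26 right, with 1 point per tumour and the mean with its standard deviation over 3 tumours. T cell, mast cell, macrophage and interferon lists lie lower in MC38 tumours, fibroblast and Wnt lists lie higher, and the proliferation list overlaps.

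Interferon-induced genes were lower in MC38 tumours at baseline. In the type I interferon list 16 of 23 genes were lower, none was higher and the median was -1.05. Irf7 (chr7:141262706-141266481), the factor that amplifies type I interferon production, had 43.1, 52.0 and 47.7 FPKM in MC38 tumours and 156, 242 and 186 FPKM in CT26 tumours. Oas2, an RNA-sensing oligoadenylate synthetase, had 9.58, 9.24 and 16 FPKM in MC38 tumours and 44.3, 66.5 and 48.0 FPKM in CT26 tumours. The MC38 values formed a separate, lower group in both, with differences of -1.99 ± 0.17 for Irf7 (SE, adjusted p = 6.63e-05) and -2.12 ± 0.24 for Oas2. Oas3, of the same family, had 6.39, 6.30 and 6.51 FPKM in MC38 tumours and 28.2, 42.5 and 13.7 FPKM in CT26 tumours (-1.84 ± 0.35, SE, adjusted p = 0.00372). Usp18, which removes the interferon-induced modifier ISG15, differed by -1.71, and Ifit3b, an RNA-binding antiviral gene, by -1.56. Leaving out 1 tumour gave 14 to 19 genes lower.

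In the interferon-gamma list 16 of 25 genes were lower and 2 higher, with a median of -0.76. Cxcl11, a ligand of the T cell chemokine receptor CXCR3, had 1.75, 1.81 and 2.15 FPKM in MC38 tumours and 11.9, 18.4 and 17.2 FPKM in CT26 tumours (-2.51 ± 0.19, SE, adjusted p = 3.17e-05). Gbp4, a guanylate-binding GTPase of cell-autonomous defence, had 40.9, 43.2 and 24.4 FPKM in MC38 tumours and 170.4, 215 and 128 FPKM in CT26 tumours (-2.22). Tgtp1, a T-cell-specific GTPase of the same defence, had 46.8, 43.4 and 23.8 FPKM in MC38 tumours and 103, 129 and 112 FPKM in CT26 tumours (-1.62 ± 0.25, SE, adjusted p = 0.00124). None of the 3 overlapped between the models. The genes higher in MC38 tumours were Gbp6 (0.92), another guanylate-binding GTPase, and Cxcl10 (0.59, adjusted p = 0.0256), a further CXCR3 ligand that was not called without the first or second MC38 tumour (0.54 and 0.58) or the first CT26 tumour (0.42), at 153, 144 and 128 FPKM in MC38 tumours and 73.7, 118 and 94.0 FPKM in CT26 tumours. The related Cxcl9 differed by 0.02. Ifng, the cytokine itself, differed by -0.94 at the edge of the threshold (adjusted p = 0.0496) and kept its call in 1 of 6 leave-outs, that of the first CT26 tumour (-1.13), with -1.12 to -0.63 in the other 5. Without the third MC38 tumour 12 genes of the list were called lower.

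The promoters of 4 of these genes are shown because interferon-regulated factors are known to bind paired GAAA elements. They were picked among called list genes whose promoter holds a match to the letters GAAANNGAAA, searched on both strands. From each list the 2 such genes of largest difference were taken, so each carries a match by choice. The sequences are RefSeq's for GRCm38.p6, from the C57BL/6J reference strain, and not reads of these tumours. Each spans 250 bases before to 50 after the annotated start and is written 5′ to 3′ on the gene's strand, with matches in capitals. Oas3 lies on the minus strand at chr5:120777610-120777909 and holds 1 match. Ifit3b lies on the plus strand at chr19:34607707-34608006 and holds 2 matches, both read on the opposite strand. Gbp2b lies on the plus strand at chr3:142594597-142594896 with 1 match on the opposite strand, and Tgtp1 on the minus strand at chr11:48992197-48992496 with 1 match.
Oas3 promoter: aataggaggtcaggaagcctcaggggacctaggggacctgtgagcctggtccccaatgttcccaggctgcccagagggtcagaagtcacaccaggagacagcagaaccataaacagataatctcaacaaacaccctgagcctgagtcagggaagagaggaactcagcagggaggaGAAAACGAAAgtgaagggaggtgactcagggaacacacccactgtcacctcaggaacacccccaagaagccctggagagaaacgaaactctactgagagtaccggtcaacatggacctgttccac
Ifit3b promoter: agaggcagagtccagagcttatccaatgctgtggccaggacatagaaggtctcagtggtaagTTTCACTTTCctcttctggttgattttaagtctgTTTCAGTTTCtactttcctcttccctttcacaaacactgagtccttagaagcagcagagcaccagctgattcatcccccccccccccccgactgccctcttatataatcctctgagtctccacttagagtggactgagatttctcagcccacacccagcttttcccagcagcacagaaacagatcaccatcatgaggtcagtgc
Gbp2b promoter: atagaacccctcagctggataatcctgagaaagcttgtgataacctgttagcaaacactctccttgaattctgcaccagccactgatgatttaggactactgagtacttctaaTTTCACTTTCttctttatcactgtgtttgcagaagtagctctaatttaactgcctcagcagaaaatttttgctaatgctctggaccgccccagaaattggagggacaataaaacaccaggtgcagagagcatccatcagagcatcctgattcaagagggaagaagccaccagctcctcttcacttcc
Tgtp1 promoter: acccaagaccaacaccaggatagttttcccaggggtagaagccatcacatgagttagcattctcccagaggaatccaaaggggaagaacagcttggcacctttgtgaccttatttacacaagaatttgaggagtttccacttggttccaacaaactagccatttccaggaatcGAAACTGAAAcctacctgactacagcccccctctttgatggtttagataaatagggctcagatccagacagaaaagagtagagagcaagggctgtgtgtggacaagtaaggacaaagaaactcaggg
The motif was present in 1131 of 32851 mouse promoters of this length (3.44%), which is 1079 of 27025 genes (3.99%). Among genes with a promoter in the table it was present in 11 of 17 of the type I list (64.7%) and in 12 of 16 of the interferon-gamma list. A match is a description of the letters and not a measured binding site.

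Mast cell transcripts were nearly absent from MC38 tumours. All 8 mast cell genes tested were lower, with a median of -4.26, and the list summed to 1.84, 3.05 and 1.77 FPKM in MC38 tumours and to 115, 185 and 336 FPKM in CT26 tumours. Of the 9 genes listed, 7 were under 1 FPKM in every MC38 tumour and 1 in every CT26 tumour. Most of the 8 were therefore tested only through the CT26 tumours, and the filter fixed their direction. Tpsab1, a tryptase stored in mast cell granules, had 0.0420, 0.107 and 0 FPKM in MC38 tumours and 44.5, 61.0 and 131 FPKM in CT26 tumours (-6.10 ± 0.36, SE, adjusted p = 1.07e-05). The related tryptase Tpsb2, the chymase Cma1 and the carboxypeptidase Cpa3 differed by -5.04, -4.87 and -4.40. Cpa3 (chr3:20215620-20242181) had 0.0670, 0.126 and 0.0345 FPKM in MC38 tumours and 11.9, 24.5 and 34.4 FPKM in CT26 tumours. The granule genes were thus at or near 0 in MC38 tumours and not in CT26 tumours. The receptor Kit, the IgE receptor chain Fcer1a, the chymase Mcpt4 and the histamine enzyme Hdc were also lower, at -1.07 for Kit, -2.07 for Fcer1a, -4.12 for Mcpt4 and -1.53 for Hdc. All 8 genes were called when any 1 tumour was left out. Highest of all CT26 tumours in mast cell and in adipocyte level was the third one, and the part of fat in this difference was not tested. Tpsab1 was also lower in every other C57BL/6 model than in every other BALB/c model, as described below. The part of host strain was not tested either.

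Macrophage genes were lower in MC38 tumours for 12 of 21 tested and higher for 1, with a median of -1.04. Spp1 (chr5:104435118-104441050), the secreted phosphoprotein osteopontin, had 126, 168 and 236 FPKM in MC38 tumours and 2487, 1634 and 2268 FPKM in CT26 tumours. Mrc1, the mannose receptor, had 3.79, 4.21 and 6.81 FPKM in MC38 tumours and 46.7, 38.5 and 42.5 FPKM in CT26 tumours. Both were around an order of magnitude apart, with differences of -3.61 ± 0.26 for Spp1 and -2.90 for Mrc1. The lipopolysaccharide co-receptor Cd14 differed by -2.79. Arg1, the arginine-degrading enzyme of suppressive myeloid cells, overlapped at 3.42, 6.52 and 29.0 FPKM in MC38 tumours and 145, 22.2 and 62.8 FPKM in CT26 tumours, and its call (-2.59, adjusted p = 0.0336) was lost without the first or second MC38 tumour or the first or the third CT26 tumour, with -3.38 to -1.95 over all leave-outs. The single higher gene was Gpnmb, a glycoprotein of macrophages and of some tumour cells, with 33.4, 40.9 and 39.4 FPKM in MC38 tumours and 13.3, 7.03 and 5.63 FPKM in CT26 tumours (2.09). Of 9 neutrophil genes 5 were lower, the calprotectin chains S100a9 (-2.26) and S100a8 (-1.24), the itaconate enzyme Acod1 (-2.35), the lectin Clec4e (-1.56) and the growth factor receptor Csf3r (-0.90), and 1 was higher, Mmp9. S100a8 was not called without the first or second tumour of MC38 (-1.16 and -1.17) or the first or the third of CT26 (-0.84 and -1.21), nor Csf3r without the second CT26 tumour (-0.81). Of 8 dendritic cell genes the cytoskeletal Fscn1 (1.76) and the factor Zbtb46 (0.62) were higher, and the chemokine receptors Xcr1 (-0.68) and Ccr7 (-1.12) and the chemokine Ccl22 (-1.14) were lower.

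Chemokines were divided, with 10 of 19 lower and 3 higher and a median of -1.26. Ccl8, a monocyte attractant, had 21.2, 19.8 and 37.3 FPKM in MC38 tumours and 345, 336 and 896 FPKM in CT26 tumours (-4.18 ± 0.41). Ccl6, a myeloid chemokine, had 5.44, 6.79 and 2.64 FPKM in MC38 tumours and 115, 74.1 and 94.8 FPKM in CT26 tumours (-4.05 ± 0.29). The related Ccl9 had 1.58, 1.64 and 1.41 FPKM in MC38 tumours and 29.3, 29.9 and 24.4 FPKM in CT26 tumours (-3.50 ± 0.14). All 3 were an order of magnitude or more lower in MC38 tumours. Cx3cl1, a membrane-bound attractant of monocytes and cytotoxic cells, was the opposite, with 14.0, 15.3 and 17.1 FPKM in MC38 tumours and 0.964, 1.12 and 0.849 FPKM in CT26 tumours (3.06 ± 0.14). The other higher chemokines were Ccl5 (0.90) and Cxcl10 (0.59), and without the first or second MC38 or the first CT26 tumour Cx3cl1 alone was called higher.

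Genes of class I antigen presentation did not move as a group, with 5 of 19 higher, 6 lower and a median of -0.11. The classical heavy chain H2-K1 had 1544, 1734 and 1754 FPKM in MC38 tumours and 410.1, 434 and 612 FPKM in CT26 tumours (1.81). The nonclassical chain H2-Q7 (chr17:35439155-35443773) had 465, 529 and 529 FPKM in MC38 tumours and 15.1, 19.6 and 23.3 FPKM in CT26 tumours (4.66), and H2-Q6 differed by 2.71. The host strains carry different haplotypes of this polymorphic locus, so levels of its genes are uncertain. Outside the locus the peptide-trimming protease Erap1 was higher (1.38), as was the chaperone Calr (0.67), while the light chain B2m differed by -0.11 and was not called. Lower were the nonclassical chains H2-T23 (-1.30) and H2-M3, the peptide transporter chain Tap2 (-0.91), the immunoproteasome chain Psmb9 and the proteasome activators Psme1 and Psme2. Psmb9 (-0.45) and Psme2 (-0.62) were not called without any 1 of the MC38 tumours (-0.53 to -0.38 and -0.65 to -0.60) or the second CT26 tumour (-0.53 and -0.70). Of 11 class II genes 1 was higher and 2 lower. The lower genes were H2-Ea-ps, with 0, 0.146 and 0.0728 FPKM in MC38 tumours and 154, 219 and 329.9 FPKM in CT26 tumours (-7.71 ± 0.26, SE, adjusted p = 1.10e-06), and H2-DMb2 (-1.72). H2-Ea-ps, a class II chain, is known not to be expressed in the haplotype of C57BL/6 mice. H2-DMb1 was the higher one (0.88, adjusted p = 0.0376), its groups overlapped, and its call was lost without the first or second tumour of either model (0.67 to 1.16 over all leave-outs). With the third tumour of both models left out, 6 class II genes were higher.

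Matrix genes were higher in MC38 tumours. Of 19 fibroblast and matrix genes 12 were higher, 5 lower and the median was 1.54, and 12 stayed the number of higher genes when any 1 tumour was left out. Col6a3 (chr1:90765923-90843971), a chain of microfibrillar collagen VI, had 292, 292 and 391 FPKM in MC38 tumours and 5.57, 10.6 and 7.38 FPKM in CT26 tumours. Postn, the matricellular protein periostin, had 209, 284 and 341 FPKM in MC38 tumours and 4.15, 11.3 and 11.6 FPKM in CT26 tumours. Both were more than an order of magnitude higher in every MC38 tumour, by 5.23 ± 0.22 for Col6a3 (SE, adjusted p = 2.65e-06) and 4.88 ± 0.36 for Postn. Col6a1 (3.71), the basement membrane protein Fbln1 (3.11) and the collagen I chain Col1a1 (2.01) were higher too. Col1a2, the partner chain of collagen I, had 80.7, 114 and 65.8 FPKM in MC38 tumours and 356, 420.5 and 292 FPKM in CT26 tumours (-2.04). The collagen I chains thus differed in opposite directions. Lum, Thy1, Mfap5 and Dcn, all expressed by fibroblasts, were the other lower genes, at -1.65, -1.74, -1.88 and -0.76. Dcn overlapped and was not called without the first or second MC38 (-0.64 and -0.58) or the second or the third CT26 tumour (-0.75 and -0.65). Of 8 pericyte and myofibroblast genes 3 were higher and none lower, namely the proteoglycan Cspg4 (3.19), smooth muscle actin Acta2 (1.69) and the myosin light chain Myl9 (1.82), and with the third tumour of both models left out 5 were higher and 1 lower.

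Endothelial genes were lower in MC38 tumours for 9 of 14 and higher for 2. Sele, the E-selectin of activated endothelium, had 0.167, 0.0861 and 0.326 FPKM in MC38 tumours and 33.1, 18.8 and 8.97 FPKM in CT26 tumours (-3.99 ± 0.40). Selp, the P-selectin that also captures leukocytes, had 0.155, 0.204 and 0.147 FPKM in MC38 tumours and 19.8, 11.3 and 10.8 FPKM in CT26 tumours (-3.63). Both selectins were at trace levels in MC38 tumours and were tested only through the CT26 tumours, which fixed their direction. The tight junction gene Cldn5 differed by -1.43, while the VEGF receptor Flt1 (1.52) and Vwf (0.64), whose groups overlapped, were higher. Vwf was not called without the second or the third MC38 (0.53 and 0.58) or the first or second CT26 tumour (0.57 and 0.54). Growth factors of vessels were mixed, with 5 of 13 higher and 3 lower. Vegfc, a lymphatic growth factor, had 30.2, 31.5 and 34.4 FPKM in MC38 tumours and 0.421, 0.665 and 0.509 FPKM in CT26 tumours (4.43 ± 0.14, SE, adjusted p = 7.86e-07), and Vegfb, Angpt1 and Angptl2 were higher besides Flt1, at 0.93, 1.57 and 0.82. Vegfc was tested only through the MC38 tumours, which fixed its direction. The related ligands Vegfd (-1.87) and Pgf (-0.99) and the angiopoietin-like Angptl4 (-2.24) were lower, 5 genes being lower with the third tumour of both models left out. Pgf was not called without the first or second MC38 (-0.82 and -1.01) or the first or the third CT26 tumour (-0.67 and -1.05).

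Wnt pathway genes were higher in MC38 tumours for 8 of 10 and lower for 1, with a median of 1.43. Of the 20 genes listed, 12 were under 1 FPKM in every CT26 tumour and 10 in every MC38 tumour. The ligand Wnt5a (chr14:28504750-28527448) had 45.0, 41.1 and 60.1 FPKM in MC38 tumours and 0.310, 0.477 and 0.341 FPKM in CT26 tumours (5.16 ± 0.17, SE, adjusted p = 1.10e-06). The ligand Wnt7b had 10.6, 8.16 and 10.1 FPKM in MC38 tumours and 0.0204, 0.0223 and 0.251 FPKM in CT26 tumours (3.27). Tcf7, a nuclear factor of the pathway that T cells also express, had 16.6, 16.4 and 17.4 FPKM in MC38 tumours and 1.29, 2.40 and 1.56 FPKM in CT26 tumours (2.71). Each was higher in all MC38 tumours. Axin2, a feedback target of the pathway, had 2.06, 2.46 and 5.95 FPKM in MC38 tumours and 0.194, 0.176 and 0.226 FPKM in CT26 tumours (1.81). The secreted regulator Dkk2 was the lower gene, with 0.275, 0.108 and 0.189 FPKM in MC38 tumours and 10.1, 5.41 and 6.74 FPKM in CT26 tumours (-2.79). Wnt5a, Wnt7b and Axin2 were tested only through the MC38 tumours and Dkk2 only through the CT26 tumours. The filter thus fixed the direction of these genes and part of the count and median. Of 15 TGF-beta genes 8 were higher and 1 lower. The ligand Tgfb2 had 10.2, 11.4 and 21.8 FPKM in MC38 tumours and 0.287, 0.129 and 0.0992 FPKM in CT26 tumours (3.66), with the ligand Tgfb3 at 1.43 and the feedback inhibitor Pmepa1 at 2.32. Tgfb2 too was tested only through the MC38 tumours. The lower gene, the matricellular target Ccn2 (-1.67), was not called without the second CT26 tumour, when no gene of the list was lower, and without the third CT26 tumour 4 genes of the list were lower.

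Some ligands and targets of the epidermal growth factor receptor were among the genes lower in MC38 tumours. Ereg, a receptor ligand, had 2.46, 2.60 and 1.96 FPKM in MC38 tumours and 34.1, 22.2 and 14.0 FPKM in CT26 tumours (-2.79). Hbegf, another ligand, had 9.38, 9.02 and 5.34 FPKM in MC38 tumours and 76.5, 45.0 and 46.3 FPKM in CT26 tumours (-2.67). Spry4, a feedback inhibitor induced by RAS signalling, had 4.08, 3.80 and 5.89 FPKM in MC38 tumours and 37.8, 32.5 and 22.5 FPKM in CT26 tumours (-2.50). The groups were separate in all 3. Of 18 EGF and FGF genes 7 were higher and 7 lower, with Fgf7, a fibroblast-derived ligand, at -3.58 and the ligand Btc at -2.70. The median of these 18 genes was -0.01. The receptor genes Egfr, Erbb3 and Fgfr1 differed by 1.04, 1.84 and 2.45, and the ligand Areg by 0.13. Of 19 RAS and MAPK genes 9 were lower and 3 higher, with a median of -0.36. The higher genes were the inhibitor Spry1 (1.93), the factor Etv4 (0.72) and the cyclin Ccnd1 (1.21).

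Both inhibitor genes of the Cdkn2a locus were higher in MC38 tumours. Cdkn2b (chr4:89306299-89311039), which encodes the cyclin-dependent kinase inhibitor p15, had 28.7, 28.3 and 42.6 FPKM in MC38 tumours and 0.518, 0.242 and 0.729 FPKM in CT26 tumours, a difference of 4.50 ± 0.21 (SE, adjusted p = 4.00e-06). Cdkn2a (chr4:89274471-89294653), which encodes p16 and p19Arf, had 4.77, 4.93 and 4.80 FPKM in MC38 tumours and 0.633, 0.445 and 0.361 FPKM in CT26 tumours, a difference of 1.98 ± 0.13 (SE, adjusted p = 1.67e-05). The neighbouring Mtap (chr4:89137122-89181081), an enzyme of methionine salvage, had 88.1, 87.6 and 85.6 FPKM in MC38 tumours and 74.7, 78.0 and 76.3 FPKM in CT26 tumours, which was not called (0.19, adjusted p = 0.126). Both inhibitors were thus under 1 FPKM in every CT26 tumour, while Mtap was expressed in both models. The inhibitors were tested only through the MC38 tumours, so the filter fixed their direction. Coordinates are those of the GENCODE M21 annotation (GRCm38), matched by gene identifier. The neighbouring predicted gene Gm12606 and the noncoding RNA Wincr1, also under 1 FPKM in every CT26 tumour, differed by 3.88 and 3.32. In the list of p53 targets and cell-cycle inhibitors 4 of 19 genes were higher and 9 lower, with a median of -0.58. The apoptosis genes Bax (-1.10) and Bbc3 (-0.95), the p53 inhibitor Mdm2 (-0.75) and the kinase inhibitor Cdkn1a (-0.77) were lower, and the death receptor Fas (1.24) and the stress protein Sesn2 (0.77) were higher. The Cdkn1a call was lost without the third MC38 or the second CT26 tumour, that of Mdm2 without the second MC38 (-0.70) or second CT26 tumour (-0.73), and Trp53 itself was not called (-0.28, adjusted p = 0.0567).

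Proliferation genes did not separate the models, with 2 of 18 higher, 2 lower and a median of 0.00. The replication clamp Pcna had 146, 135 and 107 FPKM in MC38 tumours and 251, 238 and 264 FPKM in CT26 tumours (-0.96). The topoisomerase Top2a had 217, 212 and 187 FPKM in MC38 tumours and 132, 128 and 133 FPKM in CT26 tumours (0.64), and the mitotic kinases Aurka and Aurkb differed by 0.55 and -0.37. These 4 genes were the ones called. Aurkb kept its call in 1 of 6 leave-outs, that of the third CT26 tumour (-0.43), and ran from -0.41 to -0.31 in the other 5, and Aurka was not called without the second MC38 tumour (0.46). Without the third CT26 tumour 5 proliferation genes were lower and 2 higher. Hypoxia genes were higher in MC38 tumours for 8 of 16 and lower for 1, Adm (-0.71), a vasodilator peptide that was not called without any 1 of the MC38 tumours (-0.75 to -0.66). The oxygen sensor Egln3 had 55.7, 52.2 and 58.0 FPKM in MC38 tumours and 2.79, 1.22 and 1.20 FPKM in CT26 tumours (4.41), and the carbonic anhydrase Car9 had 55.6, 49.6 and 63.3 FPKM in MC38 tumours and 33.5, 24.7 and 11.9 FPKM in CT26 tumours (1.33). The higher count was unstable, with 3 genes without the first or the second MC38 tumour, 5 without the third, 12 without the first CT26 tumour, 4 without the second and 6 without the third. Pdk1 (1.03) and the glucose transporter Slc2a1 (0.94) were lost in 5 of 6 leave-outs. Sterol synthesis genes were higher for 9 of 16 and lower for 1, Insig1 (-0.45), a brake on the pathway that was not called without the first or second tumour of either model (-0.48 to -0.34). Dhcr7, an enzyme of cholesterol synthesis, had 44.9, 41.4 and 48.6 FPKM in MC38 tumours and 11.3, 11.6 and 10.4 FPKM in CT26 tumours, with no overlap and a difference of 1.92. The enzymes Hmgcs1 and Cyp51 differed by 1.49 and 1.02, and without the third MC38 tumour 6 genes were higher.

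**Figure D3:**
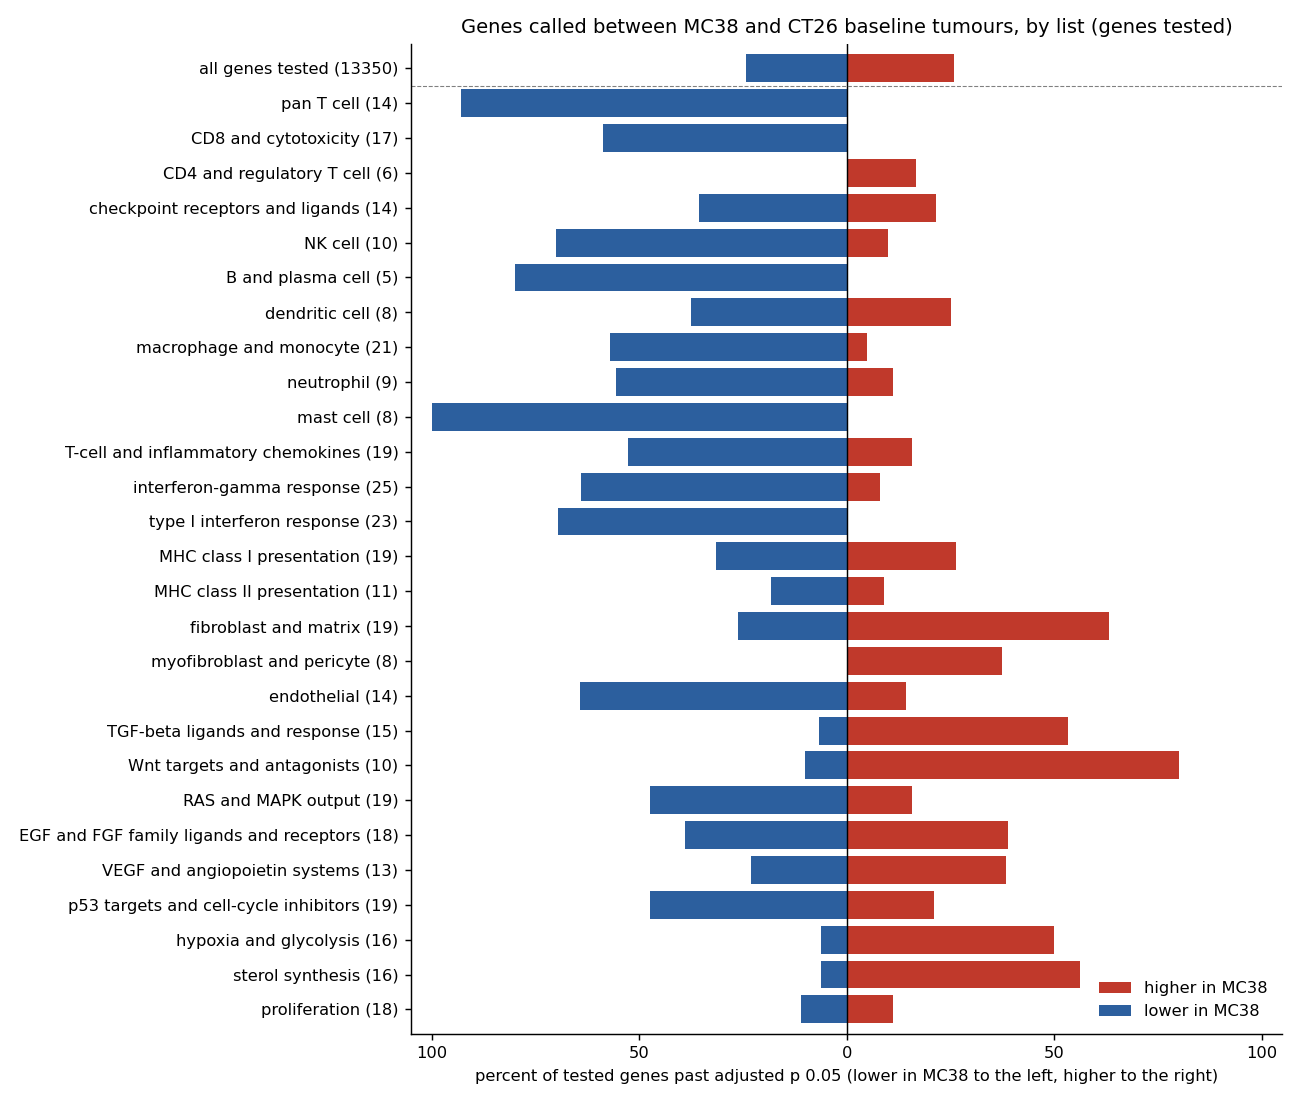
Percent of tested genes higher (right) and lower (left) in MC38 than in CT26 tumours at baseline, at an adjusted p of 0.05, for 27 gene lists and for all 13350 genes. All genes stand at 25.9% higher and 24.2% lower, Wnt and fibroblast lists extend to the right and T cell, mast cell and interferon lists to the left.

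The isotype tumours, excised on day 19, gave a separate look at the same models in other mice, although the MC38 and CT26 isotype libraries lie in different blocks of sample numbers, so that block and model cannot be told apart there. Of 12774 genes tested 8375 (65.6%) were called, 4971 higher (38.9%) and 3404 lower (26.6%), with a median of 0.12 over all genes that was 0.02 after median-ratio scaling. Of 2720 genes that were called with a difference of at least 1 at baseline and were tested in isotype tumours, 2544 (93.5%) were called in the same direction and 7 in the opposite one. The change of the difference, isotype minus baseline, passed an adjusted p of 0.05 for 989 of 13946 genes (7.09%), 836 upward (5.99%) and 153 downward (1.10%), and after median-ratio scaling for 802, 580 upward and 222 downward.

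Interferon, chemokine and class I differences moved upward between baseline and isotype tumours. The change was upward for 17 of 23 type I interferon genes, 13 of 25 interferon-gamma genes, 11 of 20 chemokines and 7 of 19 class I genes. From baseline to isotype tumours the mean sum of the type I list went from 2007 to 732 FPKM in CT26 and from 1033 to 856 FPKM in MC38. The interferon-gamma list went from 3009.8 to 819 FPKM in CT26 and from 1551 to 1128 FPKM in MC38. Chemokines went from 1436 to 599.9 FPKM in CT26 and from 529 to 559 FPKM in MC38, and class I genes from 7666 to 5445 and from 8974 to 9057 FPKM. In isotype tumours 9 type I genes were higher and 2 lower in MC38 than in CT26 tumours, namely Oas3 and Usp18. Irf7 had 60.8, 51.3, 64.7, 53.2 and 33.4 FPKM in MC38 isotype tumours and 51.7, 80.4, 46.2, 67.1 and 79.9 FPKM in CT26 isotype tumours. These groups overlapped, and Irf7 differed by -0.30 (adjusted p = 0.196), a change of 1.69 (adjusted p = 0.00517). Cd274 likewise overlapped, at 11.0, 12.1, 8.43, 20.6 and 6.97 FPKM in MC38 isotype tumours and 8.68, 15.3, 9.62, 8.79 and 9.63 FPKM in CT26 isotype tumours. It differed by 0.11 (adjusted p = 0.703), a change of 1.40 (adjusted p = 0.0415) that was 1.32 and not called after median-ratio scaling. Pdcd1 stayed lower in MC38 isotype tumours (-0.65, adjusted p = 0.0173), while Cd8a was not called there (-0.54, adjusted p = 0.0646). Of 17 genes of the T-cell-inflamed signature tested there, 6 were higher and 3 lower. The mean of the signature was 3.64 to 4.49 in MC38 and 3.49 to 4.22 in CT26 isotype tumours, which overlapped. All 7 mast cell genes tested were lower in MC38 isotype tumours, with a median of -2.59, and for 7 of 8 the change was upward. Of the 9 mast cell genes listed, 4 were under 1 FPKM in every MC38 isotype tumour. Those of them that were tested passed the filter through CT26 tumours alone, which fixed their direction. The change was called for 1 of 14 pan-T-cell genes, the adhesion molecule Cd2, and for 2 of 20 fibroblast genes, Pi16 and Mfap5. Of the fibroblast list 15 genes were higher and 4 lower in MC38 isotype tumours, with a median of 1.5, the lower ones being Col1a2, Dcn, Thy1 and Fn1. Of the CD8 and cytotoxicity list 11 of 13 genes were lower in MC38 isotype tumours, with a median of -2.36. Gzmc had 6.88, 6.28, 6.12, 2.52 and 1.22 FPKM in MC38 isotype tumours and 18.3, 19.5, 25.9, 68.3 and 27.8 FPKM in CT26 isotype tumours, without overlap. Gzmg and Gzmc, granzymes of activated lymphocytes, had the largest downward changes, -3.05 and -2.72, and stood at -3.95 and -2.54 in isotype tumours. The largest upward changes were of the macrophage product Retnla (3.60), the light chain Igkc (2.99), the monocyte marker Ly6c2 (2.77), Ccl6 (2.72), Ccl8 (2.69) and Car9 (2.61). Next among the downward changes were the oxoprolinase Oplah (-2.0), the ribosomal protein gene Rps18 (-1.64), the carbonic anhydrase Car6 (-1.64) and the matrix phosphoprotein Dmp1 (-1.60).

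**Figure D4:**
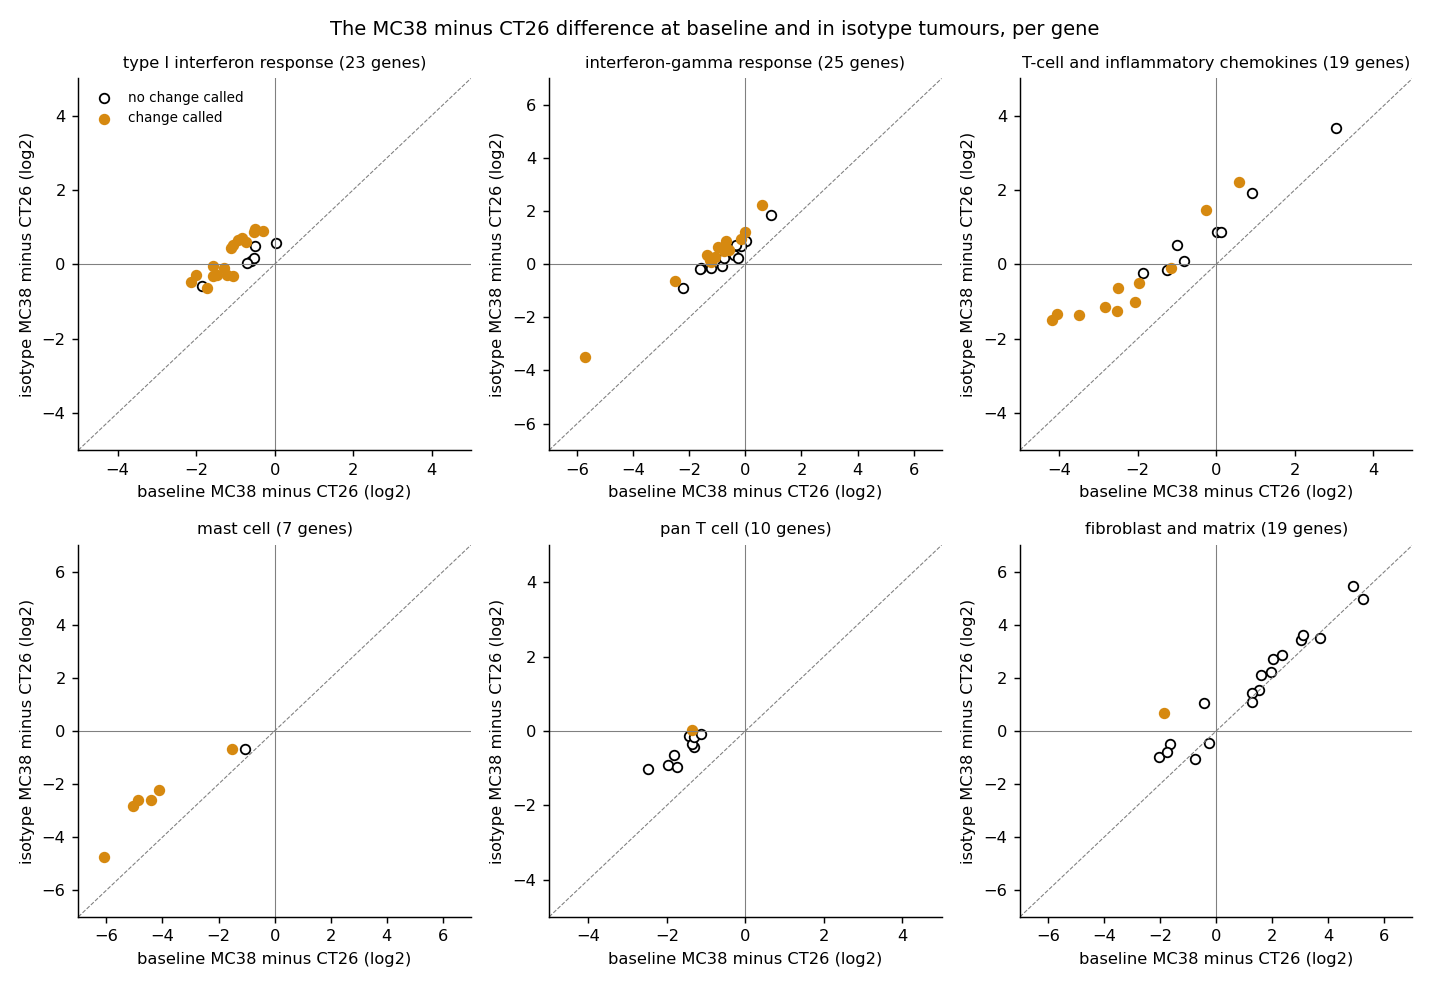
MC38 minus CT26 difference in log2(FPKM + 1) at baseline on the x axis and in isotype tumours on the y axis for 6 gene lists, with 1 point per gene and filled points where the change was called. Type I interferon genes lie above the diagonal, with 17 of 23 called upward, and fibroblast genes lie near it.

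Levels in the baseline tumours of the other models placed the differences. Of 1452 genes higher by at least 1 in MC38 tumours, MC38 had the highest mean of all 11 models for 620 (42.7%) and CT26 the lowest for 388 (26.7%). Of 1502 genes lower by at least 1, CT26 was the highest for 504 (33.6%) and MC38 the lowest for 413 (27.5%). Choosing genes by their MC38 minus CT26 difference itself favours these places. No share over all genes is given beside them, so the percentages are a description only. Col6a3 averaged 325 FPKM in MC38 tumours, the highest of the 11 models, and 7.84 FPKM in CT26 tumours, the lowest. Cdkn2b averaged 33.2 FPKM in MC38 tumours and 0.496 FPKM in CT26 tumours. Of the other models, TC1 (22.2 FPKM), MBT2 (9.87 FPKM) and CM3 (4.23 FPKM) exceeded 1 FPKM, and the other 6 lay between 0.154 and 0.925 FPKM.

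Host strain was examined with the other models that are generally grown in C57BL/6 mice, B16F10, LL2, TC1 and MB49, and in BALB/c mice, 4T1, EMT6 and RENCA. Of the 1502 genes lower by at least 1 in MC38 tumours, 263 (17.5%) had all 4 other C57BL/6 models below all 3 other BALB/c models, against 528 of all genes tested (3.96%). Of the 1452 genes higher by at least 1, 79 (5.44%) had all 4 above all 3, against 264 of all genes (1.98%). Some of the largest differences followed this order. H2-Ea-ps averaged 0.0730 FPKM in MC38 and 0.0897 to 0.125 FPKM in the other C57BL/6 models, and 234 FPKM in CT26 and 66.0 to 324 FPKM in the other BALB/c models. Ifi202b, an interferon-inducible gene known to vary between strains, had 0.00523 to 0.123 FPKM in the other C57BL/6 models and 24.9 to 106 FPKM in the other BALB/c models. Gbp2b had 0.0363 to 2.83 FPKM in the other C57BL/6 models and 76.6 to 132 FPKM in the other BALB/c models. Ly6a, a surface antigen known to differ between strains, was lower in MC38 tumours (-1.30), but its order in the other models is not given here. Both Ifi202b and Gbp2b thus separated the strains of the other models as they separated MC38 from CT26. The tryptase Tpsab1 did so too, at 0.0564 to 0.512 FPKM in the other C57BL/6 models and 3.68 to 23.9 FPKM in the other BALB/c models. Raet1e did not, with 1.09 to 18.7 FPKM in the other C57BL/6 models and 2.22 to 3.81 FPKM in the other BALB/c models. Of the 24 genes with the largest differences outside predicted models and symbols ending in -ps, 6 (25.0%) were lower in every other C57BL/6 model than in every other BALB/c model. Of the 263 lower genes that followed the order, 116 (44.1%) were annotated pseudogenes.

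**Figure D5:**
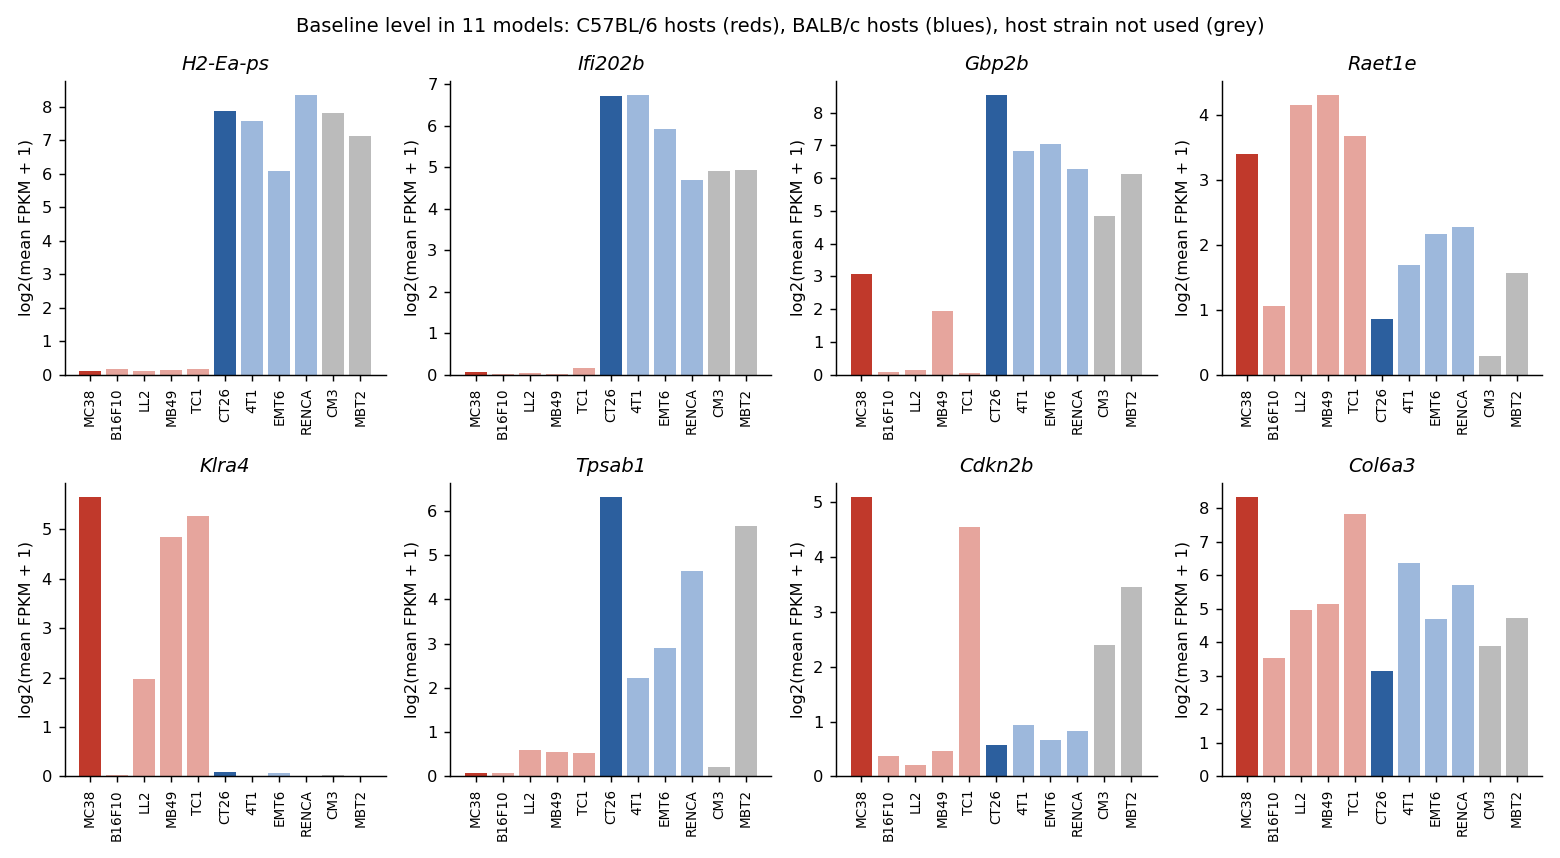
Mean level, as log2(mean FPKM + 1), of 8 genes in the baseline tumours of 11 models, red for models generally grown in C57BL/6 mice, blue for BALB/c and grey for models whose strain was not used. H2-Ea-ps, Ifi202b, Gbp2b and Tpsab1 split by strain, while Cdkn2b and Col6a3 do not.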

How the data were processed

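RNA of subcutaneous tumours was extracted, depleted of ribosomal RNA and sequenced from stranded total RNA libraries, per the labels' protocols. The deposited table, made by the authors, gives FPKM in 143 libraries. It lists 54232 identifiers, 54079 of them with a symbol, and every column was used or matched to a sample. For its aligner, quantifier, genome build and annotation, none is given in the sources used here. Because FPKM are not counts, the test was limma (3.58.1, run in R 4.3.3) on log2(FPKM + 1), with the prior variance following intensity. Tests were 2-sided at a threshold of 0.05 after Benjamini-Hochberg adjustment over all genes tested. Genes needed at least 1 FPKM in 3 of 6 baseline libraries, in 5 of 10 isotype libraries, or in 3 of the 16 libraries of the fit of the change. A gene under 1 FPKM in all baseline tumours of 1 model was tested only if all 3 of the other reached it. Its direction then followed from the filter. The labels number the tumours of a model, and each library was taken as a separate mouse, so p-values measure the spread between these samples. Depth was estimated from the smallest step between the values of genes, and the variance between replicate tumours was 8.54 to 79.6 times counting noise, so none was treated as a copy.

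The comparison, its gene lists and its alternatives were chosen with earlier results of these data known. Of 646 list genes 641 were found in the table. Named were Pdcd1, Cd274 and Cd8a, the 12 largest differences each way without overlap and outside predicted models, up to 4 called members of each list, and the 6 largest changes each way. All other genes were named after their values were seen. Gene coordinates come from GENCODE M21 (GRCm38) by identifier and promoters from RefSeq. Alternatives were pseudocounts, filters, scalings, a replicate block, the trend, the shared spread and leaving out libraries. A few genes that the rule names are not reported here. The fitting procedure was tested on simulated data.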

Additional observations from a re-analysis of the deposited data

Results flagged for a closer look

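Groups of isotype tumours and named genes numbered 78, but those with every library under 1 FPKM were not tested. Chance gives about 1 in 20 tested groups, a share that cannot be set against the 78. In 7 groups 1 library lay far from the others. Among MC38 isotype tumours these were Klra4 at 57.5 FPKM, where the nearest other library had 40.3, and Gbp2b at 14.6 FPKM against 6.02. Among CT26 isotype tumours they were Eno1b at 758 FPKM against 578, Igkc at 11.5 against 2.51, Car9 at 15 against 6.31, Gzmc at 68.3 against 27.8 and Cd274 at 15.3 against 9.63.

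The MC38 minus CT26 difference changed between baseline and isotype tumours for 20 of 39 named genes, in limma's test of the change of log2(FPKM + 1), against 7.09% of all genes tested. Of these genes 12 were chosen as the 6 largest changes each way, so that their calls are a description and the count shows nothing about the named genes. After median-ratio scaling Tpsab1 (1.21, adjusted p = 0.0677), Gbp2b (2.12, adjusted p = 0.0538) and Cd274 (1.32, adjusted p = 0.0517) were not called. The change was upward for Retnla (3.60, adjusted p = 0.013), Igkc (2.99, adjusted p = 0.0275), Ly6c2 (2.77, adjusted p = 0.00282), Ccl6 (2.72, adjusted p = 0.000416), Ccl8 (2.69, adjusted p = 0.00333) and Car9 (2.61, adjusted p = 0.00765). It was also upward for Ogn (2.37, adjusted p = 0.00218), Gbp2b (2.22, adjusted p = 0.0402), Cd274 (1.40, adjusted p = 0.0415), Tpsab1 (1.34, adjusted p = 0.0385) and Ifi202b (1.13, adjusted p = 0.00184). It was downward for Gzmg (-3.05, adjusted p = 0.0425), Gzmc (-2.72, adjusted p = 0.0288), Oplah (-2.0, adjusted p = 0.00319), Rps18 (-1.64, adjusted p = 0.00106), Car6 (-1.64, adjusted p = 0.0246) and Dmp1 (-1.60, adjusted p = 0.00798). Shisal2b (-1.26, adjusted p = 0.00233), Hmga1b (-1.06, adjusted p = 0.0155) and Baiap2l1 (-0.51, adjusted p = 0.0148) also changed downward. Of these genes Igkc, Car9, Gzmc, Cd274 and Gbp2b each hold a library that stands apart in 1 isotype group. Day, dosing and block of sample numbers differ between the sets and cannot be told apart.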

How the results depend on the processing

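No named or listed gene that was called changed sign under any alternative run. Some uncalled genes did, among them Car3 (-0.92, and 2.43 with the third tumour of both models left out) and Cd74 (-0.15 and 0.64). The number of baseline genes called was 5128 to 8000 when 1 tumour was left out and 4899 to 8499 under the other settings, against 6689, with higher and lower calls in similar number. With a difference of at least 1 required, it was 2848 to 3102 when 1 tumour was left out, and it was 1966 with a filter at 5 FPKM, where 9941 genes were tested. In isotype tumours leaving out 1 library gave 7933 to 9043 genes, against 8375. Of 338 named or listed genes called at baseline, 15 lost their call with the third tumour of both models left out, an alternative added after seeing the data, 21 to 43 when 1 tumour was left out and 47 with no filter on low values. Of 195 that were not called, 57 gained a call with the third tumour of both models left out and 32 without the third CT26 tumour. With the replicate number as a block 6272 baseline and 7858 isotype genes were called, and 16 of the 338 lost their call. The numbers were not treated as pairing the tumours, because the baseline correlations of same-numbered tumours were -0.093, 0.122 and -0.027. Having 3 tumours per model, and 1 line per model limits these values, and line, host strain and amount of host tissue cannot be told apart. Genes under about 1 FPKM were not tested, and pseudogenes and gene families depend on how shared fragments were assigned.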

Other observations

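Mesenchymal genes were mixed, with 6 of 16 higher and 4 lower in MC38 tumours at baseline. Without the first or the second MC38 tumour 3 were higher, and with the third tumour of both models left out 6 were higher and 7 lower. S100a4, a calcium-binding protein of motile cells, had 282, 277 and 501 FPKM in MC38 tumours and 2621, 2643 and 4239 FPKM in CT26 tumours, a difference of -3.18 on the log2(FPKM + 1) scale. The repressor Snai1 (2.05) and the matrix protein Tgfbi (1.98) were higher. The factor Twist2 (-1.5), the intermediate filament Vim (-0.89) and the kinase receptor Axl (-0.90) were lower. Of 10 imprinted and oncofetal genes 5 were higher and 2 lower. H19, an imprinted noncoding RNA, had 21.4, 23.3 and 48.6 FPKM in MC38 tumours and 0.354, 0.664 and 1.53 FPKM in CT26 tumours (4.07). The fetal serum protein Afp (3.05), the factor Plagl1 (2.10) and the Notch-related Dlk1 (1.52) were higher, the chromatin protein Hmga2 (-1.23) was lower, and the RNA-binding paralogs Igf2bp3 and Igf2bp1 differed in opposite directions, by 2.27 and -2.36.

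Of 19 proteases and inhibitors 7 were higher and 6 lower. The plasminogen activator Plat (4.22) and the gelatinase Mmp2 (2.60) were higher, and the inhibitor Timp1 (-2.52) was lower. The prostaglandin synthases Ptgs1 and Ptgs2 were lower, by -3.43 and -2.29. Of 12 immediate early genes 5 were lower and 1 higher. Egr1, a growth factor-induced factor, had 4.39, 5.73 and 4.88 FPKM in MC38 tumours and 68.0, 58.8 and 47.6 FPKM in CT26 tumours (-3.29). The factors Fos (-1.32) and Fosb (-0.88), the phosphatase Dusp1 (-1.07) and the RNA-binding Zfp36 (-0.99) were lower too, and Jun (0.66) was higher, with 1 more gene higher without the first CT26 tumour. Of 16 targets of the oxidative stress factor NRF2, Slc7a11 (1.36), Nqo1 (1.31) and Txnrd1 (0.92) were higher and 6 were lower, and without the third CT26 tumour 6 were higher and 5 lower.

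Differences were not spread evenly over the chromosomes. The median difference was 0.35 on chromosome 19, where 195 of 446 genes (43.7%) were higher in MC38 tumours, 0.33 on chromosome 11 and 0.28 on chromosome 13, against 0.02 over all genes. It was -0.24 on chromosome 7, where 36.5% were lower, and -0.18 on chromosome 17. In isotype tumours the medians were 0.53 on chromosome 19, 0.40 on 11, 0.34 on 13, -0.13 on 7 and -0.05 on 17, against 0.12 over all genes.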
